A study of Mus musculus with 6 samples.

Results

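The Kcn genes encode the potassium channels of the mouse, both the subunits that form the pore and the auxiliary subunits that bind to it. Members were the protein-coding genes with a Kcn symbol that had at least 10 counts in at least 3 of the 6 libraries, a rule that does not use genotype. It kept 77 of the 94 Kcn coding genes of the table, which held 43346 genes in all. RNA was sequenced from cerebella of mice aged 15 months, 3 homozygous for a knockout of Tmem106b (Tmem106b-/-, KO) and 3 wild-type (Tmem106b+/+, WT), with 1 female and 2 males of each genotype. How the knockout allele was made is not given in the sources used here. All 6 samples are cerebellar tissue, so every cell type in it contributes RNA. The study asked what loss of TMEM106B, a lysosomal membrane protein, does to the ageing cerebellum.

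Potassium channels let potassium leave a cell and so bring its membrane back to rest. Voltage-gated (Kv) channels end each action potential, and silent Kv subunits form no channel alone but alter partners of other Kv families. Calcium- and sodium-activated channels couple the membrane to ion entry, inward rectifiers (Kir) hold the resting potential and take up potassium in glia, and 2-pore-domain (K2P) channels carry leak current. In the cerebellum, Purkinje cells fire fast and without pause with the help of Kv3 and large-conductance calcium-activated (BK) channels, and mutations of KCNA1 cause an inherited episodic ataxia in people.

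Each library held between 25245778 and 31135185 counts assigned to genes. Levels are CPM, counts scaled to a common library total, on libraries adjusted by TMM, a trimmed mean of ratios, and levels compared between genes are CPM per kb of the gene length in the table. Tmem106b averaged 66.8 ± 3.64 CPM in KO cerebella and 245 ± 19.4 CPM in WT cerebella (SD, n = 3 each), which fits the labelled genotypes. All 13 Purkinje cell markers had a log2 fold change below 0, and 5 were lower in KO past the threshold in edgeR, an adjusted p under 0.05. Their summed level was 8346 to 9567 CPM in KO mice, against 12243 to 13258 CPM in WT mice, and none of the 13 was at 0. Of 10 microglial markers 3 were higher in KO in the same test, with a sum of 361 to 419 CPM in KO mice and 239 to 286 CPM in WT mice. Granule cell markers showed 0 calls and a median log2 fold change of 0.04 over 13 genes. The remaining lists had medians of -0.07 for Bergmann glia and astrocytes (1 higher call), -0.03 for interneurons, -0.04 for oligodendrocytes, 0.19 for unipolar brush cells and deep nuclei, 0.09 for vessels and 0.56 for red blood cells (0 calls each). The 10 choroid plexus markers differed widely within both genotypes, and their sum was lowest, 292 CPM, in WT replicate 1, the WT female. In whole tissue, fewer cells of a type and less RNA per cell cannot be told apart.

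Voltage-gated pore subunits supplied 46.5% of the family's summed level per kb, inward rectifiers 18.6%, Kv auxiliary subunits 16.4%, 2-pore-domain channels 11.9% and calcium- and sodium-activated channels 6.52%. Among the genes of high level, Kcnd2, a Kv4 subunit of the A-type current, had a mean of 75.2 CPM per kb over the 6 libraries. Kcnk1, a 2-pore-domain leak subunit, had 72.6 CPM per kb, and Kcnc1, a Kv3 subunit for fast repolarisation, had 62.1 CPM per kb. Kcnj10, the main inward rectifier of astrocytes and Bergmann glia, had 59.0 CPM per kb and Kcna1, a Kv1 subunit of basket cell terminals, had 54.5 CPM per kb. These genes thus came from several classes. The lower end was sparse: 40 members had a mean under 10 CPM and 14 a mean under 1 CPM.

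At the edge of the count rule, Kcnh4, a Kv12 pore subunit, was kept with 7, 16 and 7 counts in KO mice and 11, 12 and 7 counts in WT mice. Kcnj14, an inward rectifier, was just outside with 9, 8 and 4 counts in KO mice and 13, 5 and 12 counts in WT mice. Of the 17 coding genes outside the rule, Kcnj1, Kcnk16 and Kcnmb3 had 0 counts in all 6 libraries. All 77 members also entered the test across 16934 genes, so none was lost to the filter on low counts.

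The lowest p-values of the family belonged to Kcnma1, the pore of BK channels, Kcnip1, a partner of Kv4 channels, Kcna6, a Kv1 pore, and Kcng4, a silent Kv subunit. Their mean levels in KO cerebella were 59.8% to 75.6% of those in WT cerebella. The summed level of the Purkinje cell markers was lower in the same KO mice, and its part in these differences was not tested. No member passed the threshold: edgeR's quasi-likelihood test called 0 of 77 members, where it called 48 of all 16934 genes, 0.283%, with 0.148% lower and 0.136% higher. At an unadjusted p under 0.05, 14 members were lower and 3 higher in KO. That is 18.2% of the family lower beside 4.25% of all genes, and 3.90% higher beside 4.71% of all genes. Counting instead the members whose KO and WT values did not overlap gave 14 lower, 18.2% beside a background of 6.35%, and 3 higher, 3.90% beside 7.77%. Among the 37 members of at least 10 CPM, 9 were separately lower, 24.3% beside 6.88%, and 0 higher, beside 7.66%.

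DESeq2 called 5 members lower and 0 higher at an adjusted p under 0.05, against 0.866% and 0.559% of all genes. DESeq2 gave no adjusted p to 3 members of low count, Kcnh4, Kcnh5 and Kcnj5. Its 5 calls were Kcnma1, Kcnip1, Kcna6, Kcng4 and Kcnab1, and limma-voom called 0 members, with 0.130% of all genes lower and 0.124% higher. Fits with each library's GC content and length trends removed called the same number, 5 lower and 0 higher, against 0.986% and 0.614% of all genes. At a threshold of 0.10 in edgeR, 4 members were lower, against 0.402% of all genes. Leaving out 1 mouse moved the count. edgeR called 5, 0 and 4 members without KO replicate 1, 2 and 3, where it called 117, 16 and 156 of all genes. It called 2, 0 and 0 members without WT replicate 1, 2 and 3, where it called 93, 1 and 1 of all genes. Replicate 1 is the female of each genotype, so leaving either out left only 1 female. The sex term fits that mouse, and the genotype contrast then rests on the males, as in the fit of males only. The p-values set each difference against the spread between these 6 mice, with information on spread shared across genes.

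**Figure D1:**
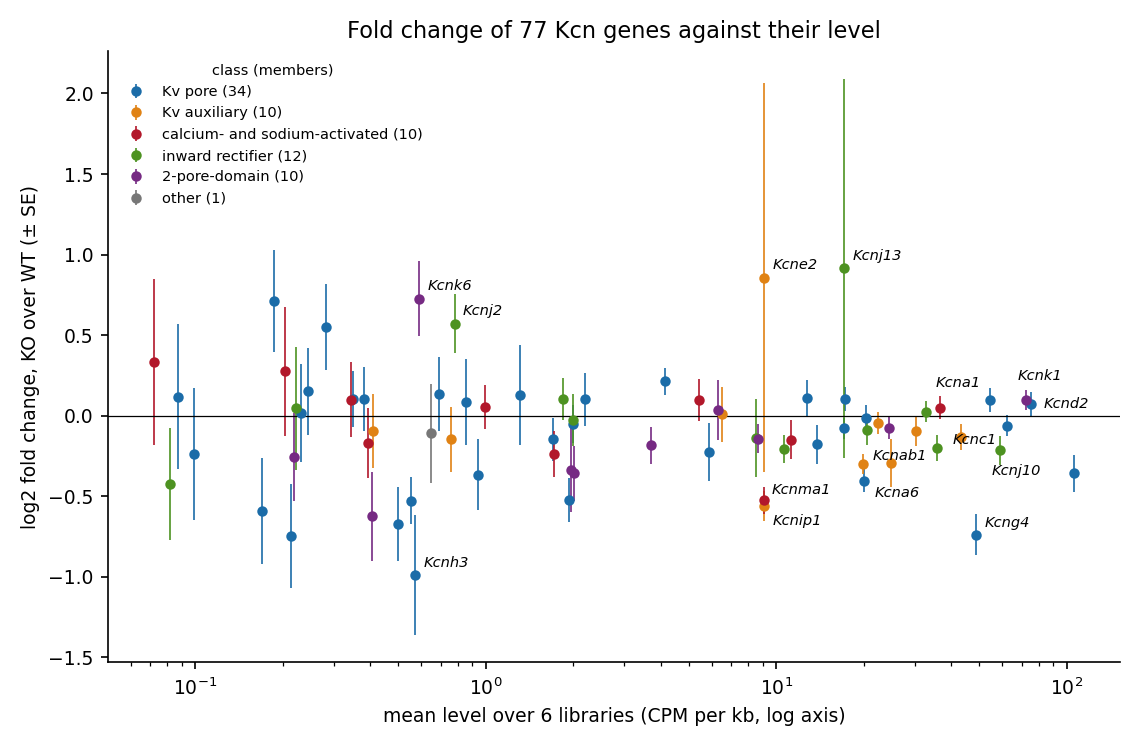
Log2 fold change, KO over WT, with its SE (vertical axis) against mean level in CPM per kb (horizontal log axis) for the 77 Kcn genes, 1 point per gene, coloured by channel class. Kcng4, Kcnma1, Kcnip1 and Kcna6 lie clearly below 0 with narrow bars, and Kcnj13 and Kcne2 have the widest bars.

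The median log2 fold change of the 77 members was -0.08, beside 0.00029 for all genes, and 45 members (58.4%) were below 0 beside 49.9% of all genes. Summed over the family, the level was 5122, 5175 and 5233 CPM in KO mice and 5796, 5505 and 5506 CPM in WT mice. The 3 KO sums lay below the 3 WT sums, with means of 5177 ± 56.0 CPM in KO mice and 5602 ± 168 CPM in WT mice (SD, n = 3 each). Of the difference of -425.6 CPM, Kcng4 made up -93.5 CPM and Kcnj10 11.1%, and neither passed the threshold. By class, the median log2 fold change was -0.03 over 34 Kv pore genes, -0.12 over 10 Kv auxiliary genes, 0.05 over 10 calcium- and sodium-activated genes, -0.06 over 12 inward rectifiers and -0.16 over 10 2-pore-domain genes. The members with non-overlapping lower values were 7 Kv pore, 2 Kv auxiliary, 1 calcium- and sodium-activated, 2 inward rectifier and 2 2-pore-domain genes.

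The promoters of the 4 members with an adjusted p under 0.10 are shown because these members had the smallest p-values of the family and were all lower in KO. RefSeq's promoter table (GRCm38.p6) held 56 of the 77 members. Each window spans the listed start and runs 5′ to 3′ on the gene's strand, with CG dinucleotides in capitals. The table lists 3 windows for Kcnip1, of which the nearest to the gene's start in the count table is given, and the window of Kcnma1 lies 654 bases from that gene's start in the count table. Their positions are chr14:24004156-24004455 for Kcnma1, chr11:33993144-33993443 for Kcnip1, chr6:126740625-126740924 for Kcna6 and chr8:119635631-119635930 for Kcng4, all on the minus strand.
Kcnma1: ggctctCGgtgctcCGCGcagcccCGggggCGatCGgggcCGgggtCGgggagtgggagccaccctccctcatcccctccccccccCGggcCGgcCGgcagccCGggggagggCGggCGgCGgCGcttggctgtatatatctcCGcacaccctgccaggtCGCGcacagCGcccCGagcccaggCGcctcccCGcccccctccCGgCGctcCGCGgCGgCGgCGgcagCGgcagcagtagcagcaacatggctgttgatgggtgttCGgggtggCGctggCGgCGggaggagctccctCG
Kcnip1: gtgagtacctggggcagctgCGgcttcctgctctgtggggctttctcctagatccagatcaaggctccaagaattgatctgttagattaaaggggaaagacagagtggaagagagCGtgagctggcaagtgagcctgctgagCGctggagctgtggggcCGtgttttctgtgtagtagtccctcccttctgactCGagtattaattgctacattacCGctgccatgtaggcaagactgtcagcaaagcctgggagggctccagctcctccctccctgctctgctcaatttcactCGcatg
Kcna6: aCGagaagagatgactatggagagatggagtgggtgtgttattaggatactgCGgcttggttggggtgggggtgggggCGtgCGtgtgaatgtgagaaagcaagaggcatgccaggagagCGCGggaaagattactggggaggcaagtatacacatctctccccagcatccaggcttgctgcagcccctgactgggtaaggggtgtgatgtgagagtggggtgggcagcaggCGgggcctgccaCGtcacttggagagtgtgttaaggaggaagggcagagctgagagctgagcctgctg
Kcng4: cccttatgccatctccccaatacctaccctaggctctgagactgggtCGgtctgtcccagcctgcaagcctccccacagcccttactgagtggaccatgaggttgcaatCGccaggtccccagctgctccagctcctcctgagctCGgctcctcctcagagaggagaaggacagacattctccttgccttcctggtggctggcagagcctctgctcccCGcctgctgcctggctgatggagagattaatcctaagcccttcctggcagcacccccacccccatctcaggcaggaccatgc

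The window of Kcnma1 held 36 CG dinucleotides, that of Kcnip1 held 7, that of Kcna6 held 8 and that of Kcng4 held 4, where the median was 7 over 32851 promoters and 9 over those of Kcn genes. The count was above both medians in Kcnma1 and below both in Kcng4. No window of the 4 held AGGTCA, a half-site for ROR receptors that was searched on both strands and present in 16.3% of all promoters.

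The calcium-activated gene Kcnma1, which encodes the pore of the BK channel, lies on chromosome 14 at 23289431 to 24004859 (mm10). Kcnma1 had 46.2, 47.9 and 50.6 CPM in KO mice and 71.3, 72.4 and 64.8 CPM in WT mice. Every KO value was below every WT value, and the KO mean was 69.4% of the WT mean (48.2 ± 2.20 CPM in KO mice, 69.5 ± 4.14 CPM in WT mice; SD, n = 3 each). edgeR gave a log2 fold change of -0.53 (SE 0.08) and an adjusted p of 0.0504, just outside the threshold. Of 17 alternative settings 13 called it, with adjusted p-values from 2.54e-05 to 0.278. The 4 that did not were limma-voom and the fits without KO replicate 2, WT replicate 2 or WT replicate 3. Those fits with a mouse left out called only 16, 1 and 1 of all genes. Kcnma1 had log2 fold changes of -0.51, -0.50 and -0.59 in them. The 13 are not independent. Males only and the fits without KO replicate 1 or WT replicate 1 all rest on the males. The threshold of 0.10 uses the same adjusted p of 0.0504. The model of Kcnma1 in the table is short: it counts 6513 bases, where the union of its exons in GENCODE vM21 has 16976. A separate lincRNA entry, A830039N20Rik, on chromosome 14 at 23292291 to 23293643, has all its 1353 bases within the 3' UTR that vM21 gives Kcnma1, and held 62.3% of the counts of both entries. Its own level was 90.1 ± 12.5 CPM in KO mice and 106 ± 4.91 CPM in WT mice (SD, n = 3 each), with overlapping values, a log2 fold change of -0.25 and an edgeR adjusted p of 0.336. With both entries summed, which was chosen after seeing the data, the level was 151, 131 and 133 CPM in KO mice and 183, 174 and 172 CPM in WT mice. The groups still did not overlap, and edgeR gave a log2 fold change of -0.35 (SE 0.06) and an adjusted p of 0.0740. The accessory BK subunit Kcnmb4, which slows the channel in neurons, had 35.8 ± 7.77 CPM in KO mice and 39.2 ± 0.494 CPM in WT mice (SD, n = 3 each), with overlapping values. Kcnt1, a sodium-activated channel gene and the class's highest by level per kb, had a log2 fold change of 0.05 (95% interval -0.11 to 0.21). Kcnn2, a small-conductance calcium-activated gene, had one of 0.10 (95% interval -0.20 to 0.40).

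Among Kv pore genes, Kcng4, a silent subunit that alters Kv2 channels, lies on chromosome 8 at 119623854 to 119635680. Kcng4 had 122, 132 and 163 CPM in KO mice and 265, 217 and 216 CPM in WT mice, so every KO value was below every WT value. The KO mean was 59.8% of the WT mean, a log2 fold change of -0.74 (SE 0.13) with an edgeR adjusted p of 0.0738, and 10 of 17 alternatives called it. Those 10 include males only and the fit without KO replicate 1, which rest on the same males. They also include the threshold of 0.10, which uses the same fit. The widest gap lay between the females, and in the males alone the log2 fold change was -0.56 with an edgeR adjusted p of 0.0325. Across all 7 silent subunits kept, the median log2 fold change was 0.09, with 1 member separately lower and 1 separately higher (14.3% each, beside 6.35% and 7.77% of all genes).

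Kcna6, a Kv1 pore gene on chromosome 6 at 126708329 to 126740674, had 105, 99.5 and 104 CPM in KO mice and 142, 125 and 140 CPM in WT mice. The groups did not overlap, and the log2 fold change was -0.40 (SE 0.07; edgeR adjusted p 0.0726). Kcna1, its abundant relative, had 506 ± 46.2 CPM in KO mice and 471 ± 16.0 CPM in WT mice (SD, n = 3 each), a log2 fold change of 0.10 (95% interval -0.07 to 0.26). Kcna2, which joins Kcna1 in axons, had a log2 fold change of -0.18 (95% interval -0.46 to 0.10). Over the 6 Kv1 genes kept the median was -0.27 and 2 of them, Kcna6 and Kcna4, were separately lower (33.3%, beside 6.35% of all genes). Kcna4, an A-type Kv1 gene, had 1.87 ± 0.560 CPM in KO mice and 2.93 ± 0.309 CPM in WT mice (SD, n = 3 each). The 3 beta subunits that attach to Kv1 channels were all below 0, with a median of -0.29. Kcnab1, on chromosome 3 at 65109384 to 65378223, had 164, 144 and 151 CPM in KO mice and 193, 184 and 187 CPM in WT mice, without overlap, and a log2 fold change of -0.30 (SE 0.06; edgeR adjusted p 0.127). Kcnab2, which overlapped between the groups, had 125 ± 25.5 CPM in KO mice and 152 ± 16.3 CPM in WT mice (SD, n = 3 each).

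**Figure D2:**
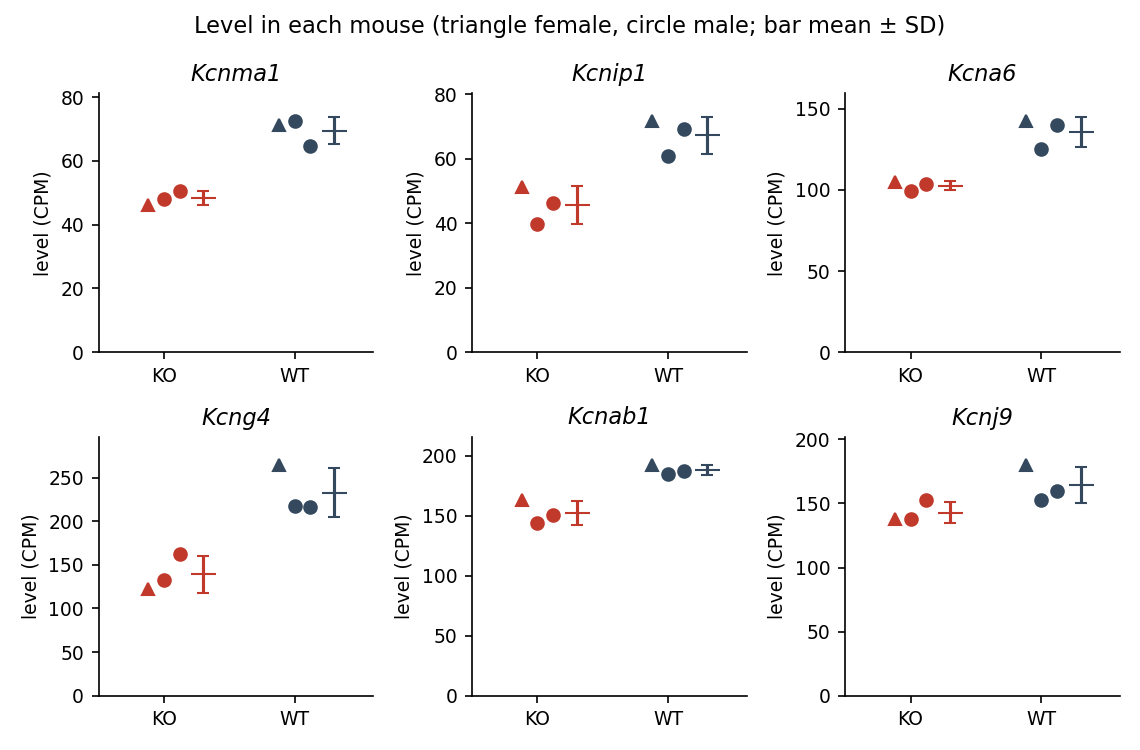
Level in CPM (vertical axis, from 0) in each mouse for 6 Kcn genes, KO in red and WT in dark blue, with triangles for females, circles for males and bars for mean ± SD (n = 3). In each gene every KO mouse lies below every WT mouse.

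Kcnip1 encodes an auxiliary subunit that brings Kv4 channels to the membrane, and lies on chromosome 11 at 33629339 to 33993152. Kcnip1 had 51.3, 39.6 and 46.2 CPM in KO mice and 71.6, 60.7 and 69.2 CPM in WT mice. The groups did not overlap, the KO mean was 68.0% of the WT mean, and the log2 fold change was -0.56 (SE 0.09; edgeR adjusted p 0.0605). All 4 genes of this calcium-binding group were below 0, with a median of -0.14, and 1 was separately lower (25.0%, beside 6.35% of all genes). Their pore partners Kcnd2 and Kcnd3 had log2 fold changes of 0.07 (95% interval -0.10 to 0.24) and 0.10 (95% interval -0.07 to 0.28), so both estimates were above 0 and both intervals include it. Dpp10, another Kv4 partner that has no Kcn symbol, had 199, 159 and 180 CPM in KO mice and 238, 231 and 226 CPM in WT mice, with no overlap. Its log2 fold change was -0.38 (SE 0.07), with an adjusted p of 0.115 in edgeR and 0.00456 in DESeq2. Dpp6, the related partner, had a log2 fold change of -0.06 (95% interval -0.21 to 0.09).

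Kcnc1, a subunit of fast Kv3 channels, had a log2 fold change of -0.06 (95% interval -0.22 to 0.09), and Kcnc4, of the same group, had one of -0.01 (95% interval -0.20 to 0.17). Kcnh7, an ERG-type channel gene, had 6.91 ± 0.544 CPM in KO mice and 9.97 ± 1.38 CPM in WT mice (SD, n = 3 each) without overlap, but 696 bases of its exons overlap the gene Gca on the opposite strand, and the strand setting of the counts is not given. Kcnh3, a Kv12 gene, had 1.35 ± 0.675 CPM in KO mice and 2.74 ± 0.883 CPM in WT mice (SD, n = 3 each), with overlapping values.

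**Figure D3:**
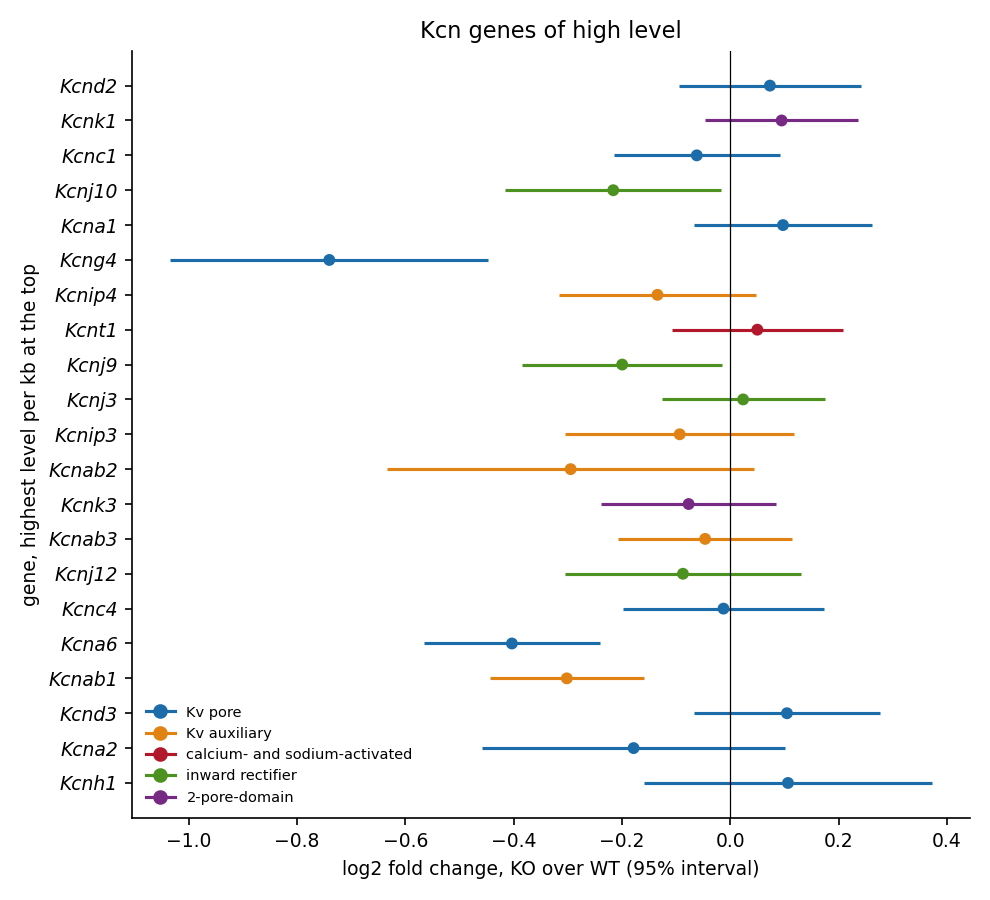
Log2 fold change, KO over WT, with its 95% interval (horizontal axis) for a selection of Kcn genes of high level per kb, ordered from the highest at the top and coloured by class, without Kcnj13, whose interval is wide. Kcng4, Kcna6 and Kcnab1 lie to the left of 0, while the intervals of Kcnd2, Kcnk1, Kcnc1, Kcna1 and Kcnt1 include it.

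Among the inward rectifiers, Kcnj10, the glial potassium buffer, had 329, 310 and 247 CPM in KO mice and 370, 325 and 332 CPM in WT mice. The values overlapped, since KO replicate 1 lay above WT replicate 2, and the log2 fold change was -0.22 (95% interval -0.42 to -0.02; edgeR adjusted p 0.515). Kcnj16, which joins Kcnj10 in glia, had 43.4, 38.0 and 34.9 CPM in KO mice and 44.1, 44.7 and 45.1 CPM in WT mice, without overlap. Beside these glial channels, the median log2 fold change of the Bergmann glia and astrocyte markers was -0.07, but the list was split. Of the 9 tested, 6 were below 0, from -0.24 in Gdf10 to -0.02 in S100b. Gfap, Aqp4 and Slc1a2 were above 0, at 0.90, 0.23 and 0.13. Kcnj9, a G protein-gated inward rectifier, had 138, 138 and 152 CPM in KO mice and 180, 153 and 160 CPM in WT mice. Its groups did not overlap, with a log2 fold change of -0.20 and an edgeR adjusted p of 0.519, while its partner Kcnj3 had one of 0.02 (95% interval -0.13 to 0.17). Kcnj2, a strong inward rectifier, was the reverse: it had 5.27, 5.39 and 4.60 CPM in KO mice and 3.19, 2.93 and 4.15 CPM in WT mice, without overlap, and a log2 fold change of 0.57 (SE 0.18; edgeR adjusted p 0.363). Kcnj8, a pore gene of metabolically gated channels in pericytes, had 4.31 ± 0.465 CPM in KO mice and 4.39 ± 0.420 CPM in WT mice (SD, n = 3 each).

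Of the 2-pore-domain genes, Kcnk1 had a log2 fold change of 0.09 (95% interval -0.05 to 0.24), and Kcnk3, an acid-sensitive leak channel, had one of -0.08 (95% interval -0.24 to 0.08). Kcnk9, an acid-sensitive leak channel of granule cells, had 7.83 ± 2.31 CPM in KO mice and 7.44 ± 0.665 CPM in WT mice (SD, n = 3 each). Kcnk6 was among the 3 members with separately higher values, with 3.74, 2.20 and 3.11 CPM in KO mice and 1.70, 1.68 and 2.02 CPM in WT mice. Its KO mean was 168% of the WT mean, a log2 fold change of 0.73 (SE 0.23) with an edgeR adjusted p of 0.361. Kcnk13, known as a channel of microglia, had 5.70, 6.21 and 4.49 CPM in KO mice and 7.42, 6.06 and 7.58 CPM in WT mice. The groups overlapped, and the log2 fold change of -0.36 ran opposite to the higher summed level of the microglial markers in KO mice.

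Other members with separated groups were of low level or small difference. Kcnk10, a mechanosensitive leak channel, had 19.2, 21.7 and 21.7 CPM in KO mice and 22.9, 22.7 and 23.4 CPM in WT mice, and Kcnk4, of the same group, had 0.545 ± 0.0631 CPM in KO mice and 0.843 ± 0.164 CPM in WT mice (SD, n = 3 each). Kcnh6, an ERG-type gene, had 0.567 ± 0.222 CPM in KO mice and 0.944 ± 0.128 CPM in WT mice (SD, n = 3 each). Kcng2, a silent subunit, was the third member with higher values in KO, with 18, 23 and 16 counts in KO mice and 13, 15 and 10 counts in WT mice. Kcnq3, a Kv7 gene of the M-type current in neurons, had 63.5 ± 7.82 CPM in KO mice and 54.7 ± 5.63 CPM in WT mice (SD, n = 3 each), with overlapping values.

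Kcnj13 and Kcne2, an inward rectifier and an auxiliary subunit known from the choroid plexus, had the largest log2 fold changes above 0, at 0.92 (SE 1.18) and 0.86 (SE 1.21). Kcnj13 had 19.4, 42.8 and 11.3 CPM in KO mice and 0.765, 32.6 and 23.9 CPM in WT mice. Kcne2 had 12.9, 32.0 and 8.07 CPM in KO mice and 0.366, 25.8 and 17.2 CPM in WT mice. Each gene's values overlapped between the genotypes, and the lowest value of both was WT replicate 1. The summed level of the 10 choroid plexus markers ran the same way, at 2690, 7241 and 2298 CPM in KO mice and 292, 6778 and 4536 CPM in WT mice. In a fit with a score of these markers in place of sex, edgeR called 2 of the 77 members, both lower. The same fit called 66 of all 16934 genes, 28 lower and 38 higher. Kcnj13 and Kcne2 were not called in it. The reported edgeR fit did not call them either (adjusted p 0.865 and 0.876), so this outcome decides nothing about them. The part of the choroid plexus in their values was not tested. For Kcnj13, 623 bases of its exons overlap Gigyf2 on the opposite strand.

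**Figure D4:**
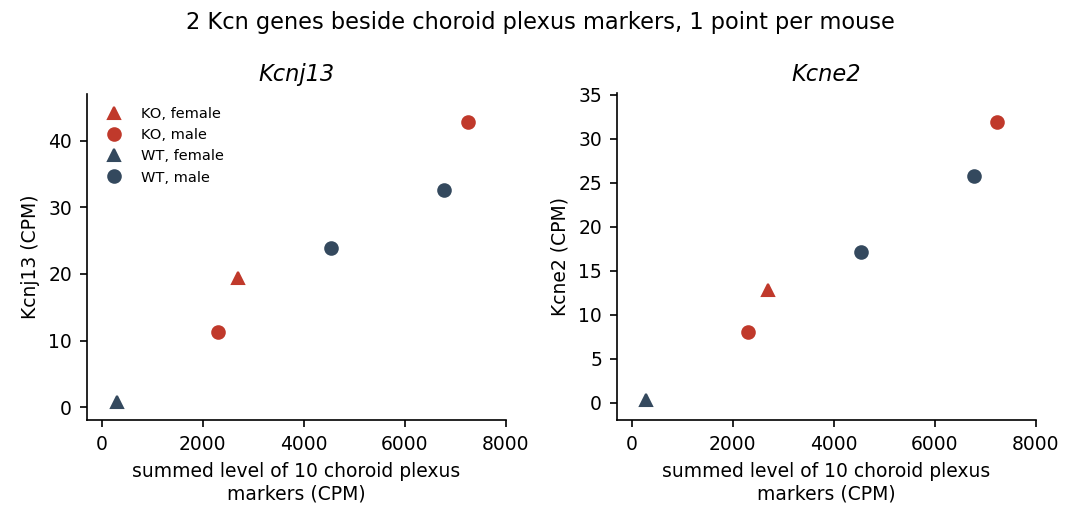
Level of Kcnj13 and Kcne2 in CPM (vertical axis) against the summed CPM of 10 choroid plexus markers (horizontal axis), 1 point per mouse, KO in red, WT in dark blue, triangles female and circles male. The WT female has the lowest value of both genes, 0.765 and 0.366 CPM, and of the markers, 292 CPM.

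The 26 genes listed as partners of Kcn channels, though outside the Kcn symbol, were tested in 24 cases. edgeR called 0 of them, and limma-voom called 0. At an unadjusted p under 0.05, 3 were lower (12.5%, beside 4.25% of all genes) and 1 was higher (4.17%, beside 4.71%). DESeq2 called 1 lower, Dpp10 (4.17%, beside 0.866% of all genes). The partners' median log2 fold change was -0.06. Dlg2, a scaffold that clusters Kv1 channels, had 178 ± 11.8 CPM in KO mice and 215 ± 9.23 CPM in WT mice (SD, n = 3 each), and Rgs7bp, an anchor of G protein gating, had 356 ± 26.0 CPM in KO mice and 406 ± 9.50 CPM in WT mice (SD, n = 3 each). Adam22, a clustering partner of Kv1 channels, was the higher one, at 387 ± 29.6 CPM in KO mice and 345 ± 5.80 CPM in WT mice (SD, n = 3 each). In these 3 genes the KO and WT values did not overlap. Tmem175, the potassium channel of lysosomes, the organelle that holds TMEM106B, had 29.7 ± 1.30 CPM in KO mice and 30.6 ± 1.23 CPM in WT mice (SD, n = 3 each), a log2 fold change of -0.04 (95% interval -0.22 to 0.14).

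The values of KO replicate 1 stood out, as it was the lowest library in 33 of the 77 members (42.9%) and in 4826 of all genes tested (28.5%). Its median deviation over the members was -0.20 on the log2 scale, beside -0.06 and -0.08 in KO replicates 2 and 3 and 0.03, 0.01 and -0.04 in the WT mice. With each library's GC content and length trends removed the values were -0.05, -0.05 and -0.09 in KO mice and 0.03, 0.01 and -0.03 in WT mice. The medians of all 3 KO libraries stayed below those of the WT libraries under both scales.

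**Figure D5:**
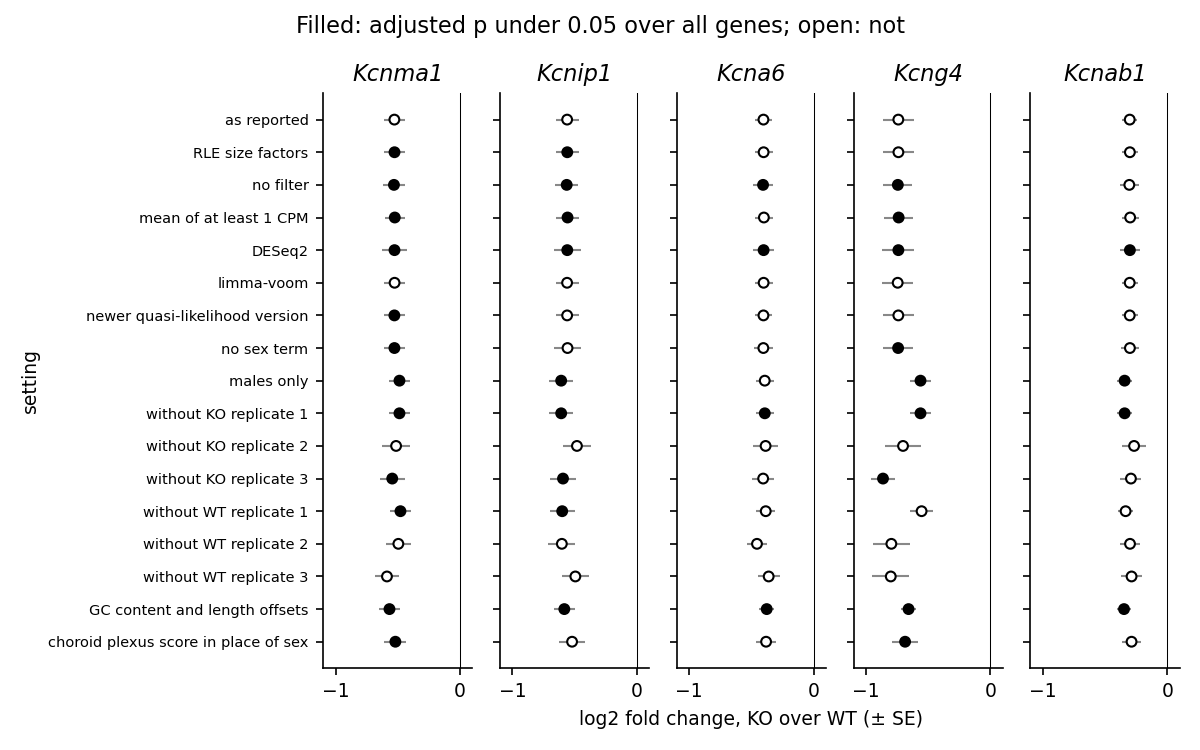
Log2 fold change, KO over WT, with its SE (horizontal axis) for 5 Kcn genes under the reported fit and 16 alternative settings (vertical axis), filled where the adjusted p over all genes was under 0.05. All points lie below 0 in the 5 genes, and the calls differ between settings, with Kcnma1 called most often.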

How the data were processed

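The authors deposited whole-number counts per gene for 6 libraries in 1 table, which per the file headers also holds coordinates, lengths, symbols and biotypes. Per the submitters' processing notes, the aligner was STAR and the build mm10. No source used here gives the counter, its strand setting or its annotation release, so reads of genes that overlap or lie antisense cannot be separated. Each library is 1 mouse, and the RNA integrity number was 10 in all, per the labels. Between mice of 1 genotype, chi-square per degree of freedom over genes was 7.45 to 31.1, far above sampling noise in each pair. The labels give no replicate numbers, so mice were numbered as deposited.

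The test was edgeR 4.0.16 in R 4.3.3: filterByExpr on genotype (minimum count 10, minimum total 15), TMM, glmQLFit (robust, legacy) with terms for sex and genotype, a two-sided F test and Benjamini-Hochberg adjustment over 16934 genes, with 0.05 as threshold. A log2 fold change is KO over WT, and its SE was taken from the F value. Levels in CPM use TMM-scaled totals. Per-library medians are deviations of log2 CPM (prior count 2) from the WT mean of each gene. The biological coefficient of variation was 11.2%, and counts limit the precision of members under 10 CPM.

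Other settings tried were size factors of the RLE type, a mean of at least 1 CPM or no filter at all, limma-voom (limma 3.58.1), DESeq2 1.42.0, the newer quasi-likelihood method, a model without sex, the males alone, each library left out, 0.10 as threshold, offsets for GC content and length (loess, span 0.5, GC content known for 99.0% of genes) and a choroid plexus score in place of sex. Summing Kcnma1 with A830039N20Rik was added after seeing the data.

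The members, the marker and partner lists and the settings were chosen with earlier results of these data known. Genes named by rule were the 10 members of smallest p, the 3 of highest level per class, those at the edge of the count rule and anchors for the tissue; some of them are not reported here. Kcnd3, Kcna4, Kcng2, Kcnj16, Kcnh3, Kcnh6, Kcnk4, Kcnk10, Kcnq3 and the partner genes were named after their values were seen. The scripts were tested on simulated counts of KO against WT with 16934 genes. Changes were planted only where a gene averaged 50 counts or more. The recovery rates below therefore do not cover members of lower count, and whether they hold in the real libraries was not tested. Of 1.5-fold changes edgeR recovered 65.3%, DESeq2 65.0% and limma-voom 64.7%. Of 2-fold changes edgeR recovered 95.7%, DESeq2 93.3% and limma-voom 95.3%. False calls were 5.11% in edgeR, 7.23% in DESeq2 and 5.14% in limma-voom.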

Additional observations from a re-analysis of the deposited data

How the results depend on the processing

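Genes called in edgeR numbered 48 and came to 75 with RLE size factors, 199 with no filter, 74 with a mean of at least 1 CPM, 232 with DESeq2, 111 in males only, 109 at a threshold of 0.10 and 271 with GC content and length offsets, and ran from 1 to 156 with each library left out (117, 16 and 156 without KO replicate 1, 2 and 3, and 93, 1 and 1 without WT replicate 1, 2 and 3). The same count was 43 with limma-voom, 56 with the newer quasi-likelihood version, 61 with no sex term and 66 with the choroid plexus score. Kcn members called numbered 0 and came to 2 with RLE size factors, 4 with no filter, 3 with a mean of at least 1 CPM, 5 with DESeq2, 1 with the newer quasi-likelihood version, 2 with no sex term, 4 in males only, 4 at a threshold of 0.10, 5 with GC content and length offsets and 2 with the choroid plexus score, and ran from 0 to 5 with each library left out. Partner genes called numbered 0 and came to 1 with no filter, 1 with DESeq2, 1 in males only and 2 with GC content and length offsets, and ran from 0 to 1 with each library left out. The median log2 fold change of the members stayed below 0 in these settings, from -0.13 to -0.05. Of 628 values of the 35 named members under alternatives, 547 kept their direction and side of the threshold, 42 passed it and 39 changed sign, all of members not called. In males only, which leaves out 1 mouse of each genotype, the changed log2 fold changes were 0.0052 for Kcnmb4, 0.0036 for Kcnip3, 0.036 for Kcnc4, -0.0051 for Kcnn2, -0.063 for Kcnj13, 0.064 for Kcnj8 and -0.10 for Kcne2. With GC content and length offsets they were 0.027 for Kcnk3, -0.023 for Kcnj3, 0.016 for Kcnc1, 0.095 for Kcnc4 and -0.0011 for Kcnk9, and with the choroid plexus score 0.011 for Kcnc4. With each library left out, they ran from -0.31 to 0.48 for Kcnc2, -0.057 to 0.044 for Kcnc4, -0.10 to 1.67 for Kcne2, -0.35 to 0.37 for Kcnh4, -0.16 to 0.012 for Kcnip3, -0.16 to 0.0047 for Kcnj12, -0.062 to 1.74 for Kcnj13, -0.010 to 0.066 for Kcnj3, -0.13 to 0.072 for Kcnj8, -0.12 to 0.30 for Kcnk9, -0.26 to 0.014 for Kcnmb4, -0.0044 to 0.26 for Kcnn2, -0.22 to 0.066 for Kcnrg and -0.0032 to 0.10 for Kcnt1. The cause was not tested. No paired analysis was possible because the labels give no replicate numbers that the genotypes share. The sample titles hold codes, some with a part in common between KO and WT mice, that no label explains, and these were not used to pair mice.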

Other observations

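Kcnq1ot1, the long noncoding antisense transcript of Kcnq1, had 18.5, 17.6 and 15.5 CPM in KO mice and 12.3, 11.5 and 15.4 CPM in WT mice. The groups did not overlap, though KO replicate 3 and WT replicate 3 were close, and the log2 fold change was 0.40 (SE 0.14) with an edgeR adjusted p of 0.434. Kcnq1 itself, whose exons share 121 bases with it on the opposite strand, had 0.951 ± 0.131 CPM in KO mice and 0.941 ± 0.326 CPM in WT mice (SD, n = 3 each). Of the other antisense entries, Kcnmb4os2 had a log2 fold change of -0.23 and Kcnmb4os1 had 0 counts in every library.

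There were 3 mice per genotype, so members of low count have wide intervals, and a p that misses the threshold does not show equal levels. Counting without a stated strand leaves Kcnh7, Kcnj13 and Kcnq1 uncertain, whose exons overlap those of a gene on the opposite strand. Other members share exon bases in this way too, among them Kcna6 (2355 bases), Kcnj3 (1621), Kcnmb4 (693) and Kcnab1 (201). There the opposite entry's mean counts were 0.63%, 1.17%, 5.15% and 1.51% of the member's own. Gene lengths in the table can be shorter than current models. The counts are of whole tissue, so no member's level can be assigned to a cell type, and the choroid plexus markers differed between mice within each genotype.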
